A study of Mus musculus with 10 samples.

Results

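Naïve CD8+ T cells were compared with CD8+ effector memory (TEM) cells that had been raised in culture from sorted naïve CD8+ cells. The comparison rests on 4 of the 10 arrays of the series: naïve CD8+ replicates 1 and 2, and CD8+ TEM replicates 1 and 2 of day 25. The other arrays hold naïve CD4+, CD4+ TEM and CD4+ memory cells, 2 of each. Per the study's methods, the naïve cells were sorted by surface markers as TCRβ+ CD8+ cells without CD44 from the spleen of wild-type C57BL/6 mice. The TEM phenotype was defined there by surface markers that include CD44, and these cells grew in IL-2 with irradiated B lymphoma cells, given anew each week. The stimulators are a line from mice whose germinal center B cells were made, by Cγ1-Cre, to express LMP1 and LMP2A, signalling proteins of Epstein-Barr virus. Neither the age of the mice nor whether replicates are separate animals is stated. Groups follow the sample titles and source names. Other record entries, which name germinal center B cells, an edited lymphoma line and a *Foxo1* status that differs between the CD8+ TEM replicates, cannot apply to these T cells and were set aside. RNA was read on Affymetrix mouse genome arrays, whose deposited values are RMA signals on the log2 scale, the scale of every level and change below. All 18193 genes with a probe set of 1 symbol were used, and a gene with several was taken from its brightest one on average.

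CD8+ T cells are the lymphocytes that kill infected or transformed cells displaying foreign peptides on MHC class I. A naïve cell circulates through lymphoid organs, divides rarely and is kept quiescent by factors such as KLF2 and FOXO1. After antigen, costimulation and IL-2 it enlarges, divides, turns to glycolysis and fills cytotoxic granules with perforin and granzymes. Effector memory cells keep this killing machinery at hand and patrol tissues rather than lymph nodes.

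The 15 measured genes of CD8 and T cell receptor identity read at least 6 on all 4 arrays. Of these, 8 were called lower in TEM cells and none higher, as given further on. *Cd8a*, which encodes CD8α, read 12.85 and 12.98 on the naïve arrays and 12.92 and 12.81 on the TEM arrays, and *Cd3e*, a T cell receptor subunit, 12.83 and 12.80 in naïve and 12.78 and 12.72 in TEM cells. *Zbtb7b*, the factor that sets the CD4 lineage, stayed low at 5.03 and 5.15 in naïve and 5.51 and 5.21 in TEM cells, where array medians run from 4.65 to 4.71 on these 4 arrays. *Cd4* itself was called higher in TEM cells, as were 4 of 8 genes of CD4 lineage and regulatory T cells, whose values are given further on. The naïve pair was wide. Of 45037 probe sets, 2397 differed at least 2-fold between the naïve CD8+ arrays, against 569 between the CD8+ TEM arrays. *Xist*, made from the inactive X chromosome, read 12.51 and 3.97 on naïve replicates 1 and 2, and the Y-linked *Eif2s3y* read 2.67 and 10.98. Sex thus differs between the naïve arrays, which come from different animals or pools. On the TEM arrays *Xist* read 11.96 and 11.94 and *Eif2s3y* 5.81 and 6.63. The part of sex in the differences below was not tested. RNA integrity was read from the control probe sets of *Gapdh*, where the 3' end exceeded the 5' end by 2.75 and 2.67 on the naïve and by 0.91 and 0.93 on the TEM arrays. This measure moved with the groups, and its part in the differences below was not tested.

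Changes were tested with limma in a fit of all 10 arrays, and a gene was called where its p, adjusted by Benjamini and Hochberg over the 18193 genes, was under 0.05. Limma called 3805 genes higher in TEM cells (20.9% of the 18193 tested) and 3121 lower (17.2%). All counts of list members that rose or fell are to be read beside these shares. In each called gene the TEM arrays lie wholly above or wholly below the naïve arrays. Because the naïve pair is wide, the fit was repeated with either naïve array left out. A call counts below as kept where all 3 fits made it in the same direction, which held for 2810 genes that rose (15.4%) and 2246 that fell (12.3%), or 73% of the 6926 calls. Large changes were mostly rises: 369 kept genes were at least 16-fold higher and 72 at least 16-fold lower. For 237 of these 369 both naïve values lie under the array median, where background makes up much of an array signal and folds are least exact. In bulk RNA, fewer cells of a type and less RNA per cell cannot be told apart, and with 2 arrays a group the p-values measure the spread between these arrays only.

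**Figure D1:**
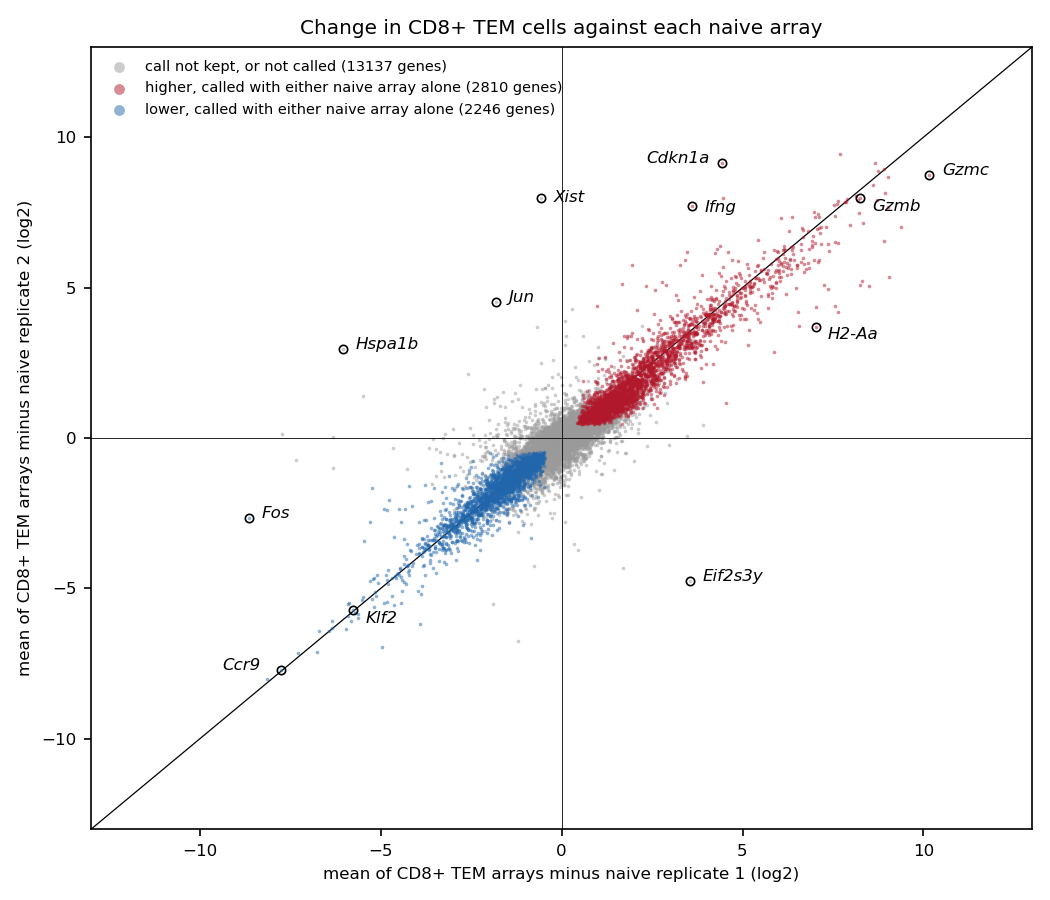
Change of each of 18193 genes in CD8+ TEM cells (mean of 2 TEM arrays), taken against naïve replicate 1 (x axis) and against naïve replicate 2 (y axis), in log2 units; the diagonal marks equal changes. Red and blue points are the 2810 higher and 2246 lower genes called with either naïve array alone, and circled genes such as *Xist*, *Fos*, *Jun* and *Hspa1b* lie far from the diagonal, where the naïve arrays differ.

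Genes of the naïve state fell in most cases. Of 20 measured genes of naïve T cells and recirculation 17 fell, 15 of them kept, and none rose, with a median log2 fold change of -2.04 (all genes 0.06). *Klf2*, the factor that maintains quiescence and the lymph node homing program, read 10.62 and 10.58 on the naïve and 4.74 and 4.97 on the TEM arrays, a fall of 5.75 (SE 0.29, adjusted p = 3.53e-06). *S1pr1*, the receptor for lymphatic exit that KLF2 induces, went from 8.95 and 8.89 to 5.99 and 6.19 (-2.83, SE 0.19, adjusted p = 1.56e-05). Both genes are separated widely, by far more than the gap within either pair. *Il6st*, the gp130 chain shared by IL-6 family receptors, fell by 5.19 (SE 0.19, adjusted p = 9.05e-07), and *Bach2*, a repressor that restrains effector genes, by 3.48 (SE 0.15, adjusted p = 2.1e-06). *Foxo1*, which drives *Klf2* and *Il7r*, fell from 12.16 and 12.21 to 10.18 and 10.15, and *Foxp1*, another factor of naïve quiescence, from 12.46 and 12.07 to 9.70 and 9.51. Other members changed little. *Il7r*, the receptor for the survival cytokine IL-7, fell by 1.06 (SE 0.14, adjusted p = 0.000443) but stayed bright at 12.01 and 11.94 on the TEM arrays. *Lef1*, a Wnt pathway factor of naïve and stem-like cells, read 12.76 and 12.49 in naïve and 12.14 and 12.14 in TEM cells (-0.48, SE 0.14, adjusted p = 0.0268) and *Ccr7*, the lymph node homing receptor, 10.71 and 11.58 in naïve and 10.28 and 10.46 in TEM cells (-0.78, SE 0.26, adjusted p = 0.0439). Neither call was kept: the *Ccr7* change was -0.34, adjusted p = 0.156 against naïve replicate 1 alone and the *Lef1* change -0.35, adjusted p = 0.121 against replicate 2 alone, and both calls were also lost without either TEM array (*Ccr7* -0.69 and -0.86, *Lef1* -0.48 and -0.49). *Id3* and *Igfbp4* were not called, *Bcl2* was not called at 0.44 but was at an unchanged value when dim genes were left out, and *Tcf7* was not analysed here.

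Among 22 measured receptors that guide cells to tissues 7 rose and 4 fell (31.8% and 18.2%), near the 20.9% and 17.2% of all genes, so that the count sets the list little apart. *Ccr9*, the gut and thymus homing receptor, read 10.48 and 10.43 on the naïve arrays and 2.55 and 2.91 on the TEM arrays, the largest fall of any surface receptor named here (-7.73, SE 0.23, adjusted p = 3.39e-07). *Ccr1* and *Ccr2*, receptors for inflammatory chemokines, rose by 5.84 (SE 0.31, adjusted p = 4.91e-06) and by 5.01 (SE 0.38, adjusted p = 2.48e-05). *Ptger2*, a receptor for prostaglandin E2, went from 5.17 and 6.02 to 9.75 and 9.70 and *Ltb4r1*, the leukotriene B4 receptor, from 5.24 and 4.87 to 7.61 and 7.55, with all TEM values above all naïve values. *Cxcr3*, which attracts type 1 effector cells to inflamed tissue, read 7.16 and 9.05 in naïve and 6.93 and 7.23 in TEM cells and was not called (-1.02, SE 0.77, adjusted p = 0.363). Its naïve arrays are further apart than its groups. Integrin genes differed as well: *Itga4*, the VLA-4 chain, fell from 12.55 and 12.35 to 9.74 and 9.72 (-2.72, SE 0.19, adjusted p = 1.53e-05), while *Itgb1*, its partner chain, rose from 7.90 and 7.97 to 8.97 and 8.98 (1.05, SE 0.25, adjusted p = 0.0113), a call lost with naïve replicate 2 alone (1.01, adjusted p = 0.0574) and without either TEM array (1.05 and 1.04).

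Among 23 surface genes of effector and memory cells 12 rose, 11 of them kept, 10 were not called and *Itga4* was the single one to fall. *Cd44*, the hyaluronan receptor on which the cells were gated, read 7.35 and 7.62 in naïve and 11.44 and 11.43 in TEM cells (3.94, SE 0.18, adjusted p = 2.63e-06), a difference that the gate itself selects for. *Il2ra*, the high-affinity IL-2 receptor chain, rose from 4.03 and 4.03 to 11.89 and 11.85 (7.84, SE 0.25, adjusted p = 4.52e-07), with the naïve arrays equal to 2 decimals. *S100a6* and *S100a4*, small calcium-binding proteins of activated cells, and *Lgals3*, a galectin, rose by 8.20, 7.74 and 6.23. *Anxa1*, a membrane-binding annexin, went from 4.52 and 5.93 to 10.66 and 10.79 (5.50, SE 0.76, adjusted p = 0.00062). For *S100a6* the naïve arrays read 3.40 and 5.78, so its size depends on the array, at 9.39 against replicate 1 and 7.01 against replicate 2. *Klrg1* and *Cx3cr1*, markers of terminal effector cells in infected mice, were not called, at 4.56 and 4.82 and 3.77 and 3.71 on the TEM arrays.

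The cytotoxic granule genes changed in both directions. Of 32 measured members 17 rose and 8 fell, of which 16 and 4 were kept. *Gzmb*, the granzyme that cleaves caspases and BID in target cells, read 4.48 and 4.76 on the naïve and 12.75 and 12.72 on the TEM arrays (8.11, SE 0.23, adjusted p = 3.39e-07). *Gzmc*, a granzyme of strongly activated T cells, read 2.70 and 4.12 in naïve and 12.91 and 12.82 in TEM cells, the largest rise of all kept genes (9.46, SE 0.39, adjusted p = 1.51e-06). *Gzma*, the most abundant tryptase of the granule, read 3.20 and 6.63 in naïve and 11.73 and 11.65 in TEM cells (6.77, SE 0.87, adjusted p = 0.00043). The 4 arrays do not overlap for any of the 3, yet the *Gzma* change is 8.48 against naïve replicate 1 and 5.06 against replicate 2. *Gzmd*, *Gzme*, *Gzmf* and *Gzmg* also rose, by 3.04 to 5.16. They reached only 5.55 to 7.53 on average in TEM cells. They are close paralogs of *Gzmc*, and cross-hybridization between their probes was not tested, so these values are not taken as separate evidence. *Gzmk*, a granzyme of memory cells, was called at 1.18 but not with naïve replicate 1 (1.15, adjusted p = 0.0744) or 2 (1.22, adjusted p = 0.065) alone, and its change was 0.64 without TEM replicate 1. *Gzmm* was not called.

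Other parts of the killing machinery moved differently. *Fasl*, the ligand that triggers the FAS death receptor, rose from 4.12 and 2.90 to 8.56 and 8.61 (5.07, SE 0.34, adjusted p = 1.32e-05), and *Rab27a*, which docks granules at the membrane, from 7.37 and 7.69 to 10.39 and 10.54 (2.94, SE 0.21, adjusted p = 1.83e-05). *Stx11*, a syntaxin for granule fusion, rose by 4.09 (SE 0.34, adjusted p = 3.87e-05). *Prf1*, the pore-forming perforin, was lower on both TEM arrays, at 7.05 and 6.62 against 8.75 and 8.51 (-1.80, SE 0.27, adjusted p = 0.00107). *Lyst*, a regulator of lysosome size, and *Crtam*, an adhesion receptor of cytotoxic cells, fell by 2.99 (SE 0.32, adjusted p = 0.000156) and by 2.39 (SE 0.25, adjusted p = 0.000153). *Nkg7*, a granule membrane protein, was already at 12.30 and 12.69 in naïve cells and at 12.42 and 12.30 in TEM cells (-0.13, SE 0.22, adjusted p = 0.707). *Serpinb9*, the inhibitor that protects killers from their own granzyme B, rose from 7.67 and 8.73 to 9.43 and 9.59 (1.31, SE 0.29, adjusted p = 0.00815), by 1.84 against naïve replicate 1 and 0.78 against replicate 2, a call lost without TEM replicate 2 (1.23) and in the mean over its probe sets (0.93).

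**Figure D2:**
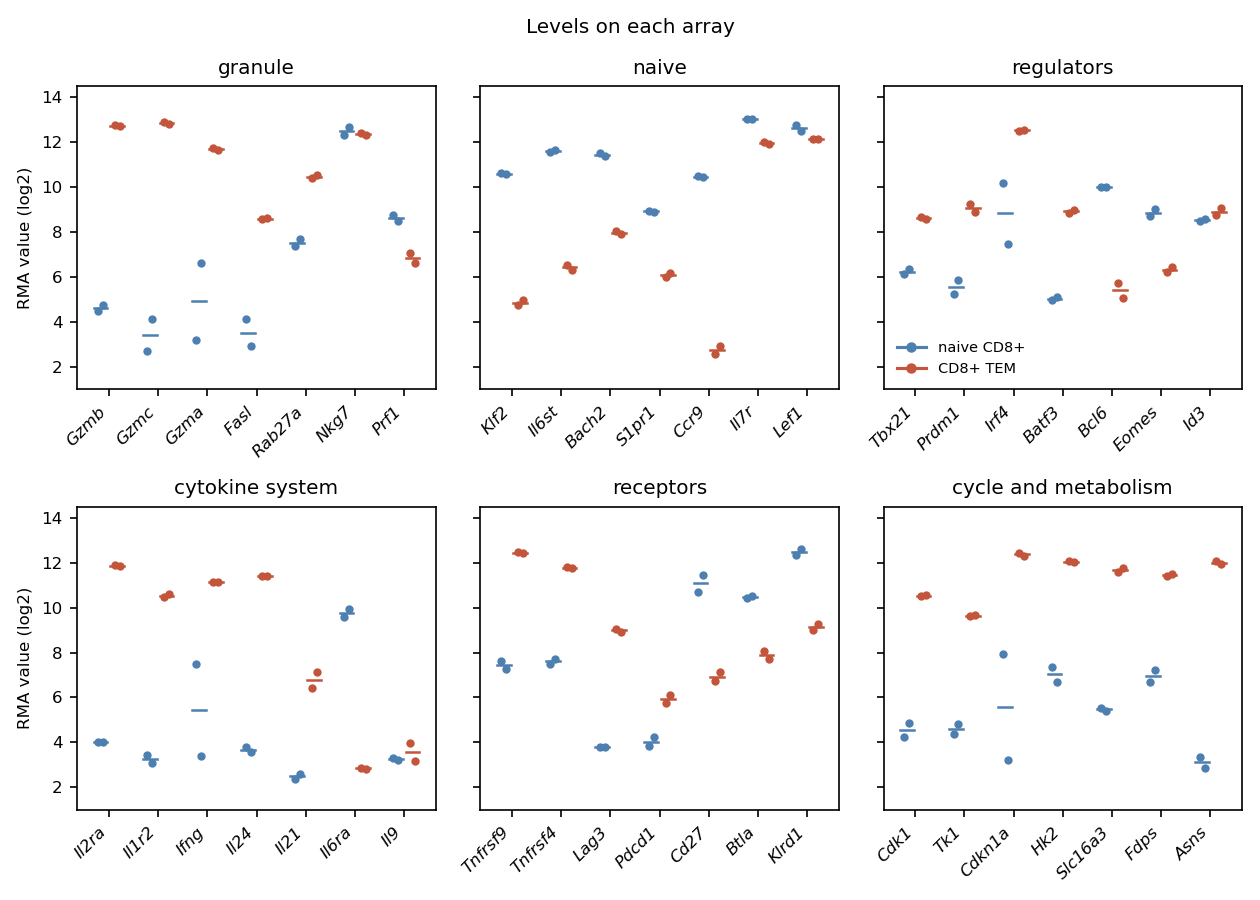
RMA values (log2) of 42 genes in 6 groups by role, with naïve CD8+ arrays in blue and CD8+ TEM arrays in red. Dots are single arrays and short lines are means of 2 arrays; *Gzma*, *Irf4*, *Ifng* and *Cdkn1a* have naïve dots far apart, and *Nkg7*, *Id3* and *Il9* have overlapping or nearly touching groups.

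Of 34 transcription factors of effector and memory fate 15 rose and 11 fell (44.1% and 32.4%), of which 14 and 10 were kept. *Batf3*, an AP-1 factor, rose from 4.98 and 5.09 to 8.87 and 8.98 (3.89, SE 0.25, adjusted p = 1.04e-05). *Irf8*, a factor of effector CD8+ cells and myeloid cells, went from 4.45 and 6.03 to 9.58 and 9.67 (4.38, SE 0.46, adjusted p = 0.00015), and *Bhlhe40*, a repressor that favors inflammatory cytokines, from 8.06 and 4.54 to 12.53 and 12.52 (6.22, SE 0.91, adjusted p = 0.000857). The TEM values lie above both naïve values in each case, though the *Bhlhe40* change is 4.46 against replicate 1 and 7.98 against replicate 2. *Irf4*, induced by antigen receptor signals, read 10.18 and 7.47 in naïve and 12.50 and 12.54 in TEM cells (3.70, SE 0.69, adjusted p = 0.00322), with a change of 2.34 against replicate 1 and 5.05 against replicate 2. *Rora*, an orphan nuclear receptor, rose by 3.26 (SE 0.32, adjusted p = 0.00011) and *Ikzf2*, which encodes Helios, by 2.26 (SE 0.14, adjusted p = 1.03e-05). *Tbx21*, which encodes T-bet, read 6.13 and 6.34 in naïve and 8.65 and 8.59 in TEM cells, and *Prdm1*, which encodes Blimp-1, 5.26 and 5.86 in naïve and 9.25 and 8.91 in TEM cells. *Zeb2*, a partner of T-bet in terminal effectors, rose but stayed dim, at 4.16 and 4.74 (1.72, SE 0.35, adjusted p = 0.005). Among those that fell, *Tox*, a factor of exhausted and memory cells, went from 9.12 and 8.69 to 5.26 and 4.99 (-3.78, SE 0.42, adjusted p = 0.000202), and *Bcl6*, which opposes Blimp-1, from 10.01 and 9.98 to 5.75 and 5.05. *Eomes*, the T-box factor of memory cells, fell from 8.70 and 9.02 to 6.23 and 6.43, while *Stat4*, which carries IL-12 signals, fell by 1.21 (SE 0.13, adjusted p = 0.000185). *Myb*, *Maf* and *Ahr* were not called.

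Of 25 cytokine genes 16 rose and 2 fell, with a median of 1.98. *Ifng*, the main effector cytokine of CD8+ cells, read 7.50 and 3.40 on the naïve and 11.12 and 11.12 on the TEM arrays (5.67, SE 1.04, adjusted p = 0.00287). It is a gene on which the naïve pair weighs heavily, with a change of 3.62 against replicate 1 and 7.72 against replicate 2, both called. *Il24*, an IL-10 family cytokine, read 3.79 and 3.55 in naïve and 11.43 and 11.42 in TEM cells (7.75, SE 0.22, adjusted p = 3.27e-07), the largest rise of the list. *Ebi3*, which encodes a chain of IL-27, rose by 6.13 (SE 0.26, adjusted p = 1.85e-06), *Csf2*, which encodes GM-CSF, by 4.46 (SE 0.46, adjusted p = 0.00014), and *Lta*, which encodes lymphotoxin, by 3.31 (SE 0.22, adjusted p = 1.26e-05). *Il21*, a cytokine better known from follicular helper cells, read 2.38 and 2.60 in naïve and 6.44 and 7.14 in TEM cells (4.30, SE 0.28, adjusted p = 1.22e-05), and *Penk*, the precursor of enkephalin peptides, 3.31 and 3.49 in naïve and 8.05 and 7.84 in TEM cells (4.55, SE 0.16, adjusted p = 6.36e-07). *Il2* rose to a dim level of 4.48 and 5.44 (1.90, SE 0.34, adjusted p = 0.00245). *Tnf* was called lower (-0.95, SE 0.28, adjusted p = 0.0301), but not with naïve replicate 2 alone (-0.69, adjusted p = 0.175) or without either TEM array (-0.89 and -1.0), and *Il10*, *Il17a*, *Il5* and *Il9* were not called and read under 4 on all 4 arrays.

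Of 12 chemokine genes 9 rose and none fell. *Ccl22*, which attracts CCR4+ cells, rose from 3.31 and 3.50 to 11.69 and 12.13 (8.50, SE 0.18, adjusted p = 1.5e-07). *Cxcl9* and *Cxcl10*, ligands of CXCR3 that interferon-γ induces, rose from 2.81 and 3.36 to 8.92 and 9.29 (6.02, SE 0.30, adjusted p = 3.23e-06) and from 7.13 and 5.15 to 11.39 and 11.47 (5.29, SE 0.52, adjusted p = 0.000107). The inflammatory chemokines *Ccl3*, *Ccl4* and *Ccl5* rose by 4.91, 1.99 and 2.27, of which the *Ccl4* call was lost with naïve replicate 1 (1.79, adjusted p = 0.113) or 2 (2.19, adjusted p = 0.0646) alone and without either TEM array (1.87 and 2.11). *Ccl1* rose by 4.39 (SE 0.38, adjusted p = 5.34e-05) and *Xcl1*, which draws cross-presenting dendritic cells, by 1.47 (SE 0.32, adjusted p = 0.00685).

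Cytokine receptor genes were divided: 9 of 23 rose and 10 fell. *Il6ra*, the ligand-binding chain of the IL-6 receptor, fell from 9.60 and 9.95 to 2.86 and 2.81 (-6.94, SE 0.17, adjusted p = 2.2e-07), beside the fall of *Il6st* above. *Il17ra*, an IL-17 receptor chain, fell by 2.43 (SE 0.17, adjusted p = 1.95e-05), and *Tgfbr1*, a TGF-β receptor, by 1.81 (SE 0.18, adjusted p = 9.81e-05). In the other direction, *Il1r2*, the decoy receptor for IL-1, read 3.44 and 3.08 in naïve and 10.48 and 10.60 in TEM cells (7.28, SE 0.18, adjusted p = 1.93e-07). *Il12rb1* and *Il12rb2*, the IL-12 receptor chains, rose by 2.80 and by 3.35, and *Il2rb*, the signalling chain for IL-2 and IL-15, by 2.15 (SE 0.15, adjusted p = 1.47e-05). The feedback inhibitors that IL-2 and STAT5 induce were high with it. *Socs2* read 3.46 and 4.20 in naïve and 10.57 and 10.71 in TEM cells (6.81, SE 0.28, adjusted p = 1.61e-06) and *Cish* 7.39 and 6.80 in naïve and 11.45 and 11.38 in TEM cells (4.32, SE 0.20, adjusted p = 2.8e-06), while *Socs3*, induced by IL-6 family signals, fell from 10.90 and 10.52 to 7.44 and 7.59 (-3.20, SE 0.26, adjusted p = 3.86e-05).

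In the list of 25 brakes on PI3K, T cell receptor and cytokine signals 14 fell and 5 rose (56.0% and 20.0%), of which 13 and 5 were kept. *Dgka* and *Dgkz*, kinases that remove diacylglycerol, fell by 2.93 (SE 0.14, adjusted p = 2.84e-06) and by 1.58 (SE 0.13, adjusted p = 4.29e-05). *Cblb*, a ubiquitin ligase that sets the need for costimulation, fell from 11.62 and 11.60 to 10.33 and 10.41, and *Lax1*, an adaptor that dampens receptor signals, from 10.42 and 10.05 to 7.75 and 7.82. *Spry2*, an inhibitor of RAS and ERK signalling, rose from 4.84 and 3.63 to 9.59 and 9.50 (5.31, SE 0.41, adjusted p = 2.86e-05). In the list of CD8 and T cell receptor identity, 8 of 15 fell (53.3%), all kept, and none rose. The largest fall was that of *Cd5*, an inhibitory co-receptor, at -1.88, SE 0.17, adjusted p = 6.74e-05, and *Lat* and *Cd247*, the adaptor and ζ chain of the receptor, fell by 1.27 and by 1.10. *Cd3d*, *Cd3e* and *Cd3g* were not called, at 0.01, -0.06 and 0.18.

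Of 23 costimulatory receptors and ligands 12 rose and 6 fell, of which 10 and 5 were kept. *Tnfrsf9*, which encodes 4-1BB, read 7.63 and 7.29 in naïve and 12.47 and 12.42 in TEM cells (4.99, SE 0.15, adjusted p = 3.77e-07) and *Tnfrsf4*, which encodes OX40, 7.50 and 7.73 in naïve and 11.79 and 11.78 in TEM cells (4.17, SE 0.14, adjusted p = 5.84e-07). *Tnfrsf18*, the GITR receptor, rose by 2.79 (SE 0.23, adjusted p = 3.95e-05). *Tnfsf4* and *Tnfsf9*, which encode the ligands of OX40 and 4-1BB, rose on the same arrays, by 5.01 and by 2.34. So did *Tnfsf11*, the RANK ligand (6.68, SE 0.41, adjusted p = 9.35e-06), and *Cd80*, a CD28 ligand (4.90, SE 0.26, adjusted p = 4.79e-06). *Cd27*, the costimulatory receptor of naïve and central memory cells, fell from 10.69 and 11.46 to 6.72 and 7.12 (-4.16, SE 0.25, adjusted p = 8.56e-06), while its ligand *Cd70* rose from 4.45 and 4.0 to 6.39 and 7.28 (2.61, SE 0.44, adjusted p = 0.0018). The paper's introduction states that LMP1 signalling raises CD70, OX40L and 4-1BBL. Whether these ligand transcripts came from T cells or from the stimulators was not tested. *Slamf6* fell by 2.92 (SE 0.28, adjusted p = 9.21e-05), whereas *Slamf7*, another receptor of the SLAM family, rose by 5.46 (SE 0.43, adjusted p = 3.37e-05).

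Of 16 inhibitory receptors and ligands 8 rose and 4 fell, of which 8 and 2 were kept. *Lag3*, which binds MHC class II, read 3.78 and 3.77 in naïve and 9.05 and 8.92 in TEM cells (5.21, SE 0.15, adjusted p = 3.27e-07). *Havcr2*, which encodes TIM-3, rose from 3.97 and 4.47 to 7.56 and 7.53 (3.33, SE 0.25, adjusted p = 2.5e-05) and *Cd244a*, the 2B4 receptor, from 3.36 and 4.13 to 8.39 and 8.43 (4.66, SE 0.27, adjusted p = 6.48e-06). *Pdcd1*, which encodes PD-1, rose but stayed modest, at 5.76 and 6.09 from 3.82 and 4.22 (1.90, SE 0.35, adjusted p = 0.00311), and *Pdcd1lg2*, a PD-1 ligand, rose by 5.14 (SE 0.29, adjusted p = 6.48e-06). *Ctla4* was not called, with naïve arrays that stand apart at 8.88 and 5.88, against 9.04 and 8.92 on the TEM arrays. *Btla* fell by 2.57 (SE 0.16, adjusted p = 1.12e-05) and *Nt5e*, the ectoenzyme CD73, by 1.25 (SE 0.20, adjusted p = 0.00132), while *Entpd1*, the ectoenzyme CD39, rose by 4.06 (SE 0.18, adjusted p = 2.3e-06). Of 15 NK cell receptor genes 2 rose and 2 fell (13.3% each, against 20.9% and 17.2% of all genes). *Klrd1*, which encodes CD94, fell from 12.32 and 12.61 to 8.99 and 9.27 (-3.34, SE 0.40, adjusted p = 0.00029), and *Klrk1*, which encodes NKG2D, was called higher (1.61, SE 0.40, adjusted p = 0.0131) but not with naïve replicate 2 alone (1.0, adjusted p = 0.0646) or without TEM replicate 1 (1.29).

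Most proliferation genes rose. Of 39 genes of mitosis and the spindle 35 rose, 34 of them kept, and 1 fell, with a median log2 fold change of 3.61. Of 36 DNA replication genes 26 rose, 25 of them kept, and 1 fell. *Cdk1*, the kinase that starts mitosis, read 4.25 and 4.87 on the naïve and 10.50 and 10.55 on the TEM arrays (5.96, SE 0.33, adjusted p = 6.05e-06). *Ube2c*, the ubiquitin-conjugating enzyme of the anaphase promoting complex, read 4.80 and 5.61 in naïve and 10.90 and 10.76 in TEM cells (5.62, SE 0.48, adjusted p = 5.05e-05). *Tk1*, the S phase thymidine kinase, rose from 4.38 and 4.80 to 9.61 and 9.68 (5.05, SE 0.19, adjusted p = 8.64e-07) and *Uhrf1*, which copies DNA methylation at replication, from 8.22 and 8.60 to 11.57 and 11.65 (3.20, SE 0.18, adjusted p = 5.99e-06). *Mcm4*, a helicase subunit, was already bright in naïve cells, at 10.95 and 10.34, and was not called (0.52, SE 0.22, adjusted p = 0.109). *Cdt1*, the licensing factor, was the 1 replication gene to fall, from 12.17 and 11.60 to 10.88 and 10.80 (-1.05, SE 0.23, adjusted p = 0.0075), and *Kif23*, a kinesin of cell division, the mitotic one (-1.0, SE 0.31, adjusted p = 0.0354), a call lost with naïve replicate 1 (-0.79, adjusted p = 0.176) or 2 (-1.21, adjusted p = 0.0541) alone and without TEM replicate 2 (-0.70).

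Since replication and mitosis genes rose together, 4 of their promoters are shown. As background, E2F factors bind sites such as TTTCCCGC, TTTGGCGC and TTCCCGCC (the first and last can overlap) in replication genes, and NF-Y binds CCAAT near the CHR element TTTGAA in mitotic genes. RefSeq windows of build GRCm38.p6, from 250 bases before to 50 after a start site, were searched on both strands. Windows on a chromosome not reported here were left out of the choice of genes to print. Of each list, the 2 kept genes with the largest rise were taken whose window holds an E2F motif (*Cdc6*, *Uhrf1*) or both CCAAT and TTTGAA (*Cdk1*, *Ube2c*). The 250 bases before the start site are printed 5′ to 3′ on the strand of the gene, with the E2F motif in *Cdc6* and *Uhrf1*, and CCAAT and TTTGAA in *Cdk1* and *Ube2c*, as read or as their reverse complement, in capitals.
Cdc6 promoter (chr11:98907901-98908150, plus strand): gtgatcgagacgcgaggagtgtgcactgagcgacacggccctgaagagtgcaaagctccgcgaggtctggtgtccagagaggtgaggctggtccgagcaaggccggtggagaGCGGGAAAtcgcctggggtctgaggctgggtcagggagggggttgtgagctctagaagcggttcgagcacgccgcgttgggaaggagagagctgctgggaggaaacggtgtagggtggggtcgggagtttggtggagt
Uhrf1 promoter (chr17:56303087-56303336, plus strand): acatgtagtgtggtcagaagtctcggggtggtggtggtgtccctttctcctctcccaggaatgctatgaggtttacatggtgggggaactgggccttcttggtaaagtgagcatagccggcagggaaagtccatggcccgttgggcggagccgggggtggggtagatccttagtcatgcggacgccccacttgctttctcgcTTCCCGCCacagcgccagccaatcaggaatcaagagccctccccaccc
Cdk1 promoter (chr10:69352913-69353162, minus strand): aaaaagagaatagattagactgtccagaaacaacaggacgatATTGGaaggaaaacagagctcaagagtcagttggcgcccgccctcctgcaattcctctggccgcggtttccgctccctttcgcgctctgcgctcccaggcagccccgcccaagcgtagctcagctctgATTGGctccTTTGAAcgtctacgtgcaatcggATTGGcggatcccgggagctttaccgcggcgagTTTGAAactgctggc
Ube2c promoter (chr2:164769679-164769928, plus strand): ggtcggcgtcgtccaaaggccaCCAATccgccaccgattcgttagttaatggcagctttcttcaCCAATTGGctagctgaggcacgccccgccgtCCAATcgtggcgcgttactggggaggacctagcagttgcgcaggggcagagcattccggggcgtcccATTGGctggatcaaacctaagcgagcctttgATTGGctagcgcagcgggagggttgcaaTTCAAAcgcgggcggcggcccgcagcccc
In *Cdk1* the TTTGAA letters begin 71 and 15 bases before the start site and in *Ube2c* 29 bases before it, while the E2F letters begin 138 bases before the start in *Cdc6* and 48 before it in *Uhrf1*. Windows were found for 32 of the 36 measured replication genes and 32 of the 39 mitotic genes. An E2F motif occurs in 17 of 39 replication windows (43.6%) and in 3 of 34 mitotic windows (8.82%). The share was 4.69% of the 18109 windows of measured genes and 3.21% of all 32851 windows. CCAAT and TTTGAA occur together in 24 of 34 mitotic windows (70.6%) and 4 of 39 replication windows (10.3%). Here the share was 5.23% of the windows of measured genes and 6.95% of all windows. These matches describe letters in a window and show neither binding nor a cause. *Cdc6*, the loader of the replicative helicase, belongs to the genes with a wide naïve pair, at 7.78 and 4.32, and rose to 9.33 and 9.58 (3.40, SE 0.90, adjusted p = 0.0179), by 1.67 against replicate 1 and by 5.13 against replicate 2. Its call was lost without either TEM array (3.53 and 3.28) and with only the 4 CD8+ arrays in the fit.

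Among 27 regulators of the G1 phase 18 rose and 4 fell. *E2f1*, *E2f7* and *E2f8*, an activator and 2 repressors of the E2F family, rose by 4.12 (SE 0.29, adjusted p = 1.66e-05), by 3.71 (SE 0.35, adjusted p = 8.14e-05) and by 4.79 (SE 0.27, adjusted p = 5.99e-06). *Ccnd1*, a D-type cyclin, rose from 6.07 and 6.73 to 10.50 and 10.35 (4.03, SE 0.30, adjusted p = 2.19e-05) and *Cdk6*, its kinase partner, from 8.65 and 8.85 to 11.64 and 11.59 (2.87, SE 0.18, adjusted p = 9.39e-06). Of the genes for CDK inhibitors, *Cdkn2a*, the p16 and ARF locus, read 3.89 and 3.63 in naïve and 7.45 and 7.34 in TEM cells (3.64, SE 0.18, adjusted p = 3.76e-06), and *Cdkn1a*, which encodes p21, 7.95 and 3.23 in naïve and 12.43 and 12.31 in TEM cells (6.78, SE 1.19, adjusted p = 0.00231). The *Cdkn1a* change was 4.42 against naïve replicate 1 and 9.14 against replicate 2. The quiescence genes *Btg1*, *Btg2* and *Cdkn1b*, the last of which encodes p27, fell by 1.02, 2.15 and 1.05. *Myc*, a transcription factor of cell growth, rose little, at 9.52 and 9.57 in naïve and 10.09 and 10.16 in TEM cells (0.58, SE 0.12, adjusted p = 0.00573).

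Genes of glycolysis rose in 16 of 17 cases, 14 of them kept, and none fell. *Hk2*, the inducible hexokinase, read 7.36 and 6.70 in naïve and 12.05 and 12.01 in TEM cells (5.0, SE 0.26, adjusted p = 4.42e-06). *Slc16a3*, which exports lactate, read 5.55 and 5.39 in naïve and 11.60 and 11.76 in TEM cells (6.21, SE 0.14, adjusted p = 1.5e-07). *Aldoc*, an aldolase, read 4.08 and 4.59 in naïve and 11.08 and 11.07 in TEM cells (6.74, SE 0.23, adjusted p = 6.47e-07). *Slc2a3*, a glucose transporter, rose by 2.27 (SE 0.12, adjusted p = 5.7e-06). Of 23 genes of cholesterol and fatty acid synthesis 19 rose and 1 fell. *Fdps*, which makes farnesyl diphosphate, rose from 6.68 and 7.24 to 11.43 and 11.51 (4.51, SE 0.19, adjusted p = 1.85e-06), and *Idi1*, *Sqle* and *Scd2* rose by 2.73, 2.62 and 2.69. *Scd1*, a fatty acid desaturase, rose from 2.74 and 6.42 to 11.79 and 11.78 (7.21, SE 0.95, adjusted p = 0.000495), 9.05 against naïve replicate 1 and 5.36 against replicate 2.

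Amino acid genes gave a mixed picture, with 8 of 19 rising and 4 falling (42.1% and 21.1%). *Asns*, which makes asparagine, read 3.35 and 2.87 in naïve and 12.08 and 11.92 in TEM cells (8.89, SE 0.80, adjusted p = 6.43e-05), and *Psat1* and *Mthfd2*, of serine synthesis and mitochondrial folate metabolism, rose by 2.74 (SE 0.18, adjusted p = 1.38e-05) and by 2.16 (SE 0.22, adjusted p = 0.000126). *Ddit3*, a factor of the amino acid and protein folding stress response, fell from 8.82 and 8.79 to 7.41 and 7.34 (-1.43, SE 0.23, adjusted p = 0.00142). Among 13 metallothionein and antioxidant genes 10 rose. *Mt1* and *Mt2*, which bind zinc, rose by 8.08 (SE 0.23, adjusted p = 3.27e-07) and by 7.86 (SE 0.40, adjusted p = 3.65e-06), and *Prdx4*, a peroxiredoxin of the secretory pathway, by 4.62 (SE 0.16, adjusted p = 6.31e-07), although the brightest *Mt1* probe set without a mark for cross-hybridization gave a change of 0.20, while *Slc30a1*, a zinc exporter, fell by 1.98 (SE 0.27, adjusted p = 0.000562).

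Of 24 interferon-stimulated genes 13 fell and 9 rose, of which 12 and 9 were kept. Among those that fell were *Ifit1*, which binds viral RNA, from 8.70 and 9.37 to 5.15 and 5.45 (-3.73, SE 0.31, adjusted p = 3.99e-05), *Oasl2* from 7.20 and 7.44 to 3.53 and 3.75 (-3.68, SE 0.32, adjusted p = 5.33e-05) and *Irf7*, the regulator of type I interferon, from 8.43 and 8.72 to 5.93 and 5.97 (-2.62, SE 0.16, adjusted p = 8.01e-06). The IFITM genes, which block viral entry at membranes, rose: *Ifitm1* read 4.44 and 5.80 in naïve and 13.45 and 13.49 in TEM cells, *Ifitm2* 3.23 and 4.02 in naïve and 12.19 and 12.15 in TEM cells, and *Ifitm3* 3.70 and 6.76 in naïve and 11.92 and 12.08 in TEM cells, with changes of 8.35, 8.54 and 6.77. *Bst2*, or tetherin, rose by 2.58 (SE 0.17, adjusted p = 1.47e-05). *Isg15* was not analysed here.

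Of 14 BCL-2 family and death receptor genes 6 rose and 4 fell (42.9% and 28.6%). *Bcl2l1*, which encodes BCL-XL, rose from 6.32 and 6.54 to 8.08 and 8.07 (1.64, SE 0.22, adjusted p = 0.000496) and the proapoptotic *Pmaip1*, or NOXA, from 8.30 and 7.19 to 10.54 and 10.52 (2.78, SE 0.31, adjusted p = 0.000189). *Mcl1*, a survival factor, fell by 1.04 (SE 0.12, adjusted p = 0.000265), and *Bid*, the granzyme B substrate, by 1.23 (SE 0.20, adjusted p = 0.00147). Of 8 GIMAP genes, small GTPases needed for lymphocyte survival, 5 fell, all kept, from 0.74 for *Gimap9* to 2.08 for *Gimap5*. *Gimap7* was called higher (0.62, SE 0.18, adjusted p = 0.028), a call lost with naïve replicate 2 alone (0.43, adjusted p = 0.148) and without either TEM array (0.57 and 0.67). Among 15 enzymes of surface glycans 7 rose and 3 fell (46.7% and 20.0%), of which 4 and 1 were kept. *Fut7*, which builds selectin ligands, rose from 5.08 and 5.41 to 7.90 and 8.05 (2.73, SE 0.25, adjusted p = 7.76e-05) and *St6galnac6*, a sialyltransferase, from 6.22 and 5.54 to 9.71 and 9.64 (3.79, SE 0.38, adjusted p = 0.000113).

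**Figure D3:**
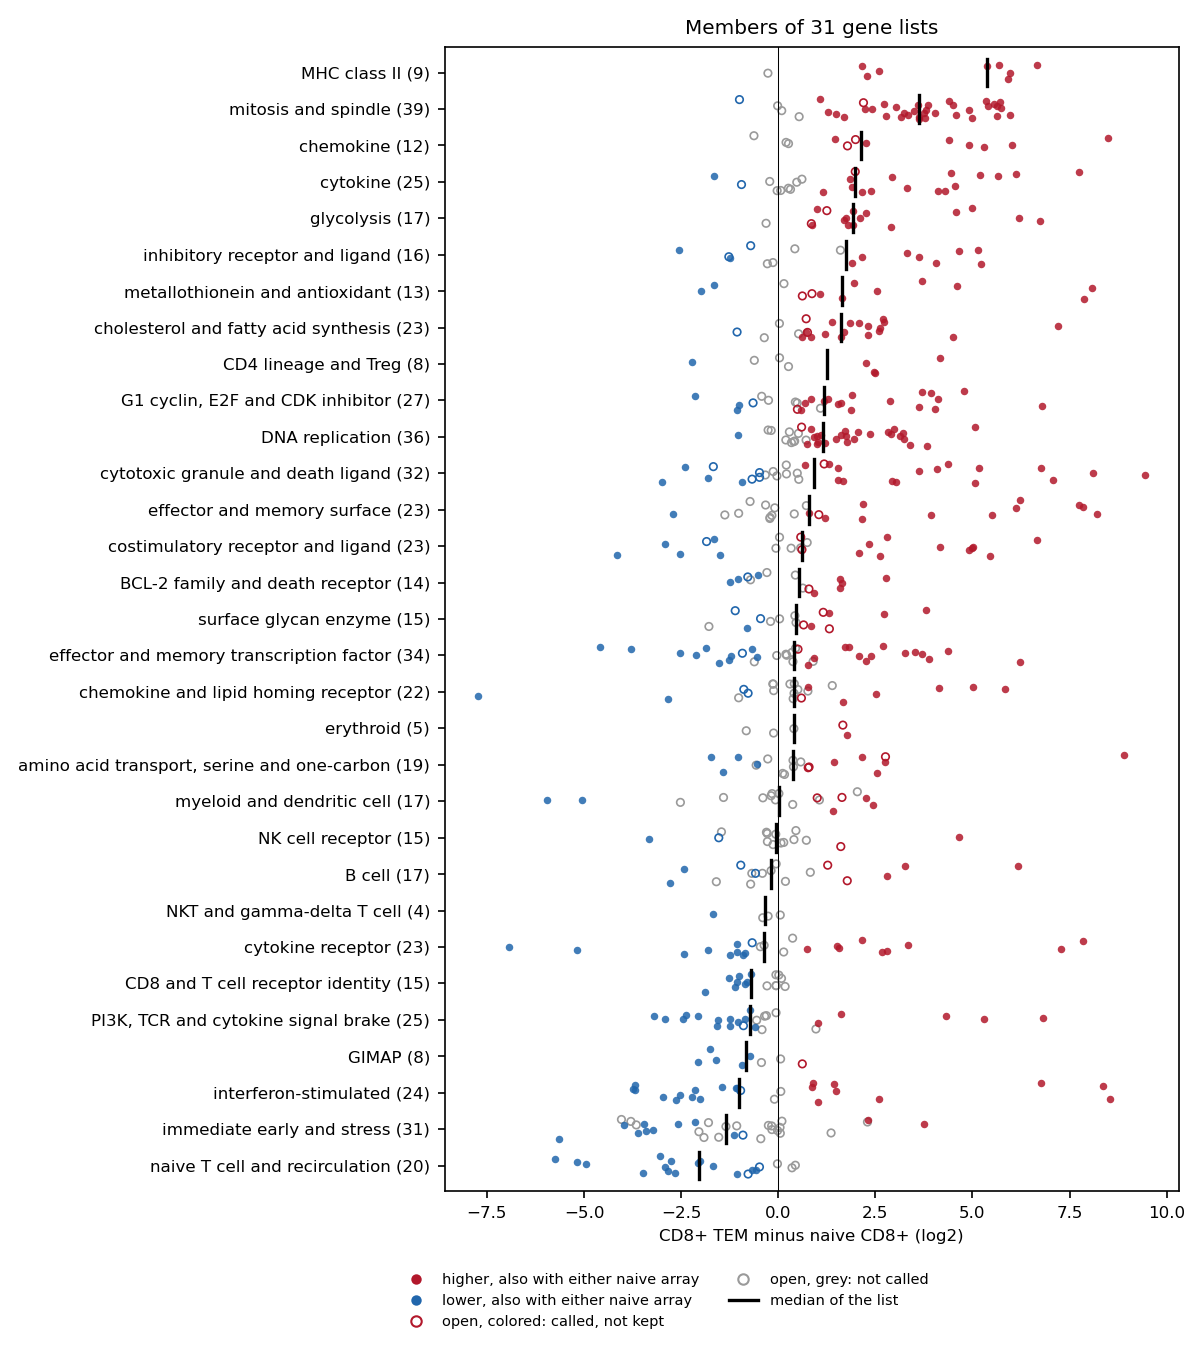
Log2 change in CD8+ TEM cells of the measured members of 31 gene lists, ordered by median (black bars; number of members in brackets). Filled points are kept calls, made with both naïve arrays and with either alone, open colored points are other calls, and open grey points were not called; MHC class II (median 5.36) and mitosis (3.61) lie at the top and the naïve list (-2.04) at the bottom.

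The largest changes over all genes held several that have no known part in killing. *Csn2*, which encodes the milk protein β-casein, read 2.79 and 2.67 on the naïve and 11.62 and 11.46 on the TEM arrays (8.81, SE 0.26, adjusted p = 3.76e-07), and *Ccn3*, a secreted matrix protein, 2.53 and 2.5 in naïve and 11.45 and 11.42 in TEM cells (8.92, SE 0.31, adjusted p = 6.35e-07). *Me1*, the cytosolic malic enzyme that supplies NADPH, rose from 2.70 and 3.06 to 11.72 and 11.72 (8.85, SE 0.25, adjusted p = 3.27e-07). *Nrn1*, or neuritin, a membrane-anchored protein first described in neurons, read 3.78 and 4.58 in naïve and 12.49 and 12.50 in TEM cells (8.31, SE 0.32, adjusted p = 1.08e-06). All 4 rose beyond any gap within a pair. *Enah*, an actin regulator, *Mpzl2*, an adhesion protein, and *AA467197*, a small mitochondrial protein, rose by 8.04, 7.92 and 8.58. At the other end stood *Ifi213*, an interferon-inducible PYHIN gene, at 11.24 and 11.09 in naïve and 3.34 and 2.85 in TEM cells (-8.07, SE 0.32, adjusted p = 1.28e-06), and *Rnf144a*, a ubiquitin ligase, at 10.47 and 10.34 in naïve and 3.14 and 3.24 in TEM cells (-7.22, SE 0.23, adjusted p = 4.89e-07). *Dtx1*, a Notch pathway regulator, *Cmah*, the enzyme that makes N-glycolylneuraminic acid, and *Rasgrp2*, an activator of the integrin switch RAP1, fell by 6.34, 6.56 and 5.90. Further falls among the largest were those of *Atp1b1*, a sodium pump subunit (-6.43), *Slc15a2*, a peptide transporter (-5.95), and *Atp10d*, a lipid flippase (-5.75). *Trpm1*, a cation channel (-5.81), *Adamts10*, a metalloprotease (-6.21), and the predicted gene *Gm30054* (-6.15) were others. The *Atp1b1* probe set carries the suffix a in its name, and its brightest probe set without an s, x or a suffix gave -0.09.

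Genes of the immediate early and stress response, which are switched on within minutes of a stimulus or of handling a tissue, show how far the naïve arrays differ. All 25 members at least 2-fold apart between them were higher on replicate 1, out of 31, against 355 of all 18193 genes. The median change of the list was -2.45 against naïve replicate 1 alone and 0.06 against naïve replicate 2 alone. *Fos* read 13.06 and 7.09 on naïve replicates 1 and 2 and 4.12 and 4.72 on the TEM arrays, *Hspa1b*, a heat shock gene, 13.18 and 4.18 in naïve and 7.36 and 6.93 in TEM cells, and *Jun* 11.73 and 5.38 in naïve and 9.77 and 10.06 in TEM cells. The TEM values of *Hspa1b* and *Jun* lie between the naïve ones, so the direction depends on the array used: the *Jun* change is -1.81 against replicate 1 and 4.53 against replicate 2. Of the list, 10 fell, 9 of them kept, and 2 rose, both kept. *Egr1*, a factor induced by receptor signals, fell from 12.84 and 11.81 to 9.20 and 8.98 (-3.23, SE 0.30, adjusted p = 7.4e-05), *Zfp36*, an mRNA decay factor, from 11.68 and 10.34 to 7.10 and 6.97 (-3.97, SE 0.36, adjusted p = 6.98e-05) and *Dusp2*, a MAP kinase phosphatase, from 11.87 and 9.43 to 6.93 and 7.16 (-3.61, SE 0.63, adjusted p = 0.00228). The *Dusp2* change was -4.83 against naïve replicate 1 and -2.39 against replicate 2, and that of *Fos* -8.64 and -2.66. The *Fos* call was lost without either TEM array. *Atf3* rose from 6.65 and 4.30 to 9.32 and 9.14 (3.76, SE 0.62, adjusted p = 0.00164).

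Genes of antigen-presenting cells differ within the naïve pair in the other direction. Of all 18193 genes, 425 were at least 2-fold higher on naïve replicate 2. In the MHC class II list 8 of 9 genes rose, all kept, and 5 were at least 2-fold higher on naïve replicate 2. *H2-Aa*, the α chain of I-A, read 5.67 and 8.98 in naïve and 12.69 and 12.69 in TEM cells (5.36, SE 0.85, adjusted p = 0.00132), 7.02 against replicate 1 and 3.71 against replicate 2, and *Cd74*, the invariant chain, 6.12 and 9.57 in naïve and 13.80 and 13.74 in TEM cells (5.92, SE 0.88, adjusted p = 0.000936). *Ciita*, the class II transactivator, rose from 3.43 and 3.74 to 6.47 and 5.91 (2.60, SE 0.23, adjusted p = 5.63e-05). Of 17 myeloid and dendritic cell genes, 9 were at least 2-fold higher on naïve replicate 2, and 5 rose and 2 fell (29.4% and 11.8%, against 20.9% and 17.2% of all genes). *S100a8* and *S100a9*, abundant in neutrophils, fell from 7.34 and 9.61 to 3.44 and 3.41 and from 8.76 and 10.75 to 3.57 and 4.05, and *Lyz2*, the macrophage lysozyme, read 5.20 and 8.70 in naïve and 4.45 and 4.40 in TEM cells and was not called (-2.52, SE 0.95, adjusted p = 0.0705). Among the rises, *Flt3*, a cytokine receptor of dendritic cells and progenitors, went from 3.50 and 3.65 to 5.84 and 6.21 (2.45, SE 0.17, adjusted p = 1.46e-05) and *Zbtb46*, a factor of classical dendritic cells, from 5.99 and 7.06 to 8.79 and 8.80 (2.27, SE 0.30, adjusted p = 0.000473), both kept. *Itgam* and *Fcgr1*, other macrophage markers, read at most 4.03 on any of the 4 arrays. The summed linear signal of the myeloid list was 9.99, 11.79, 10.14 and 10.20 on a log2 scale for naïve 1, naïve 2, TEM 1 and TEM 2.

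B cell markers bear on the culture, since the stimulators were B lymphoma cells. Of 17 such genes 5 rose and 4 fell (29.4% and 23.5%, near the shares over all genes), of which 3 and 2 were kept. On naïve replicate 2, 7 of them were at least 2-fold higher, against 425 of all 18193 genes. *Ebf1*, the early B lineage factor, rose from 3.40 and 5.56 to 10.53 and 10.76 (6.16, SE 0.62, adjusted p = 0.000114), *Vpreb3* from 4.88 and 4.89 to 8.11 and 8.16 (3.25, SE 0.24, adjusted p = 2.46e-05) and *Blnk*, a B cell receptor adaptor, from 2.60 and 3.75 to 5.61 and 6.34 (2.79, SE 0.50, adjusted p = 0.00252). *Ighm*, the IgM heavy chain, fell from 11.76 and 12.60 to 9.32 and 9.46 (-2.79, SE 0.30, adjusted p = 0.000163). Its brightest probe set without an s, x or a suffix gave a change of 0.03. Among members not called, *Pax5*, *Ms4a1* and *Cr2* read 3.58 and 3.58, 3.21 and 3.76 and 4.0 and 4.02 on the TEM arrays, and *Cd79a* 4.45 and 5.61. The summed linear signal of the list was 12.12, 12.97, 11.84 and 12.06 on a log2 scale on the 4 arrays in the same order. The part of lymphoma cell RNA in the TEM values was not tested, as no array of these cells was analysed here. *Cd4* rose from 4.30 and 4.10 to 6.51 and 6.89 (2.5, SE 0.17, adjusted p = 1.37e-05) in TEM cells, while *Cd40lg*, from the same list of CD4 lineage and regulatory T cell genes, was not called (0.03, SE 0.15, adjusted p = 0.903). Of that list 4 of 8 rose and 1 fell, all kept. Of 5 erythroid genes 2 rose, of which the call of *Car2*, a carbonic anhydrase, was kept (1.77, SE 0.21, adjusted p = 0.000248). Of 4 NKT and γδ T cell genes *Cd1d1*, which presents lipids to NKT cells, fell by 1.68 (SE 0.23, adjusted p = 0.000671).

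**Figure D4:**
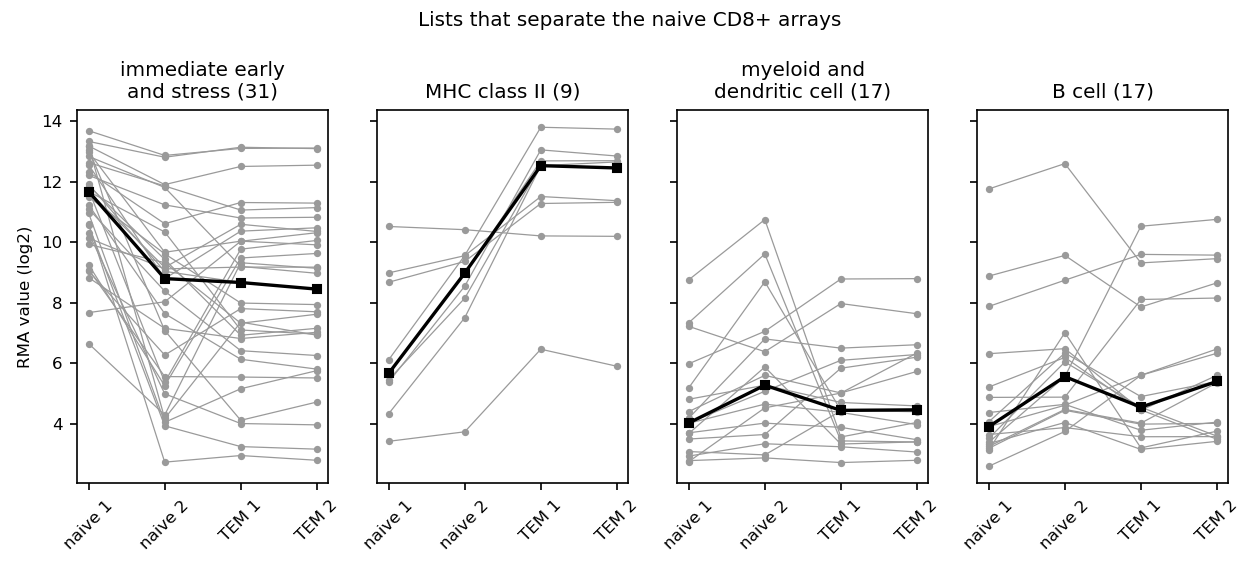
RMA values (log2) of 4 gene lists on the naïve CD8+ arrays (naïve 1, naïve 2) and the CD8+ TEM arrays (TEM 1, TEM 2). Grey lines join the 4 values of a gene and black squares are medians of the list (number of genes in brackets); the immediate early median is higher on naïve 1 and the MHC class II median higher on naïve 2, and the class II median is higher again on both TEM arrays.

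The change in CD8+ cells was also set against that of CD4+ cells, which were cultured in the same system for the same time. The comparisons share no array. Both came from the same fit and its shared estimate of the spread, so the calls in both subsets are not independent. Limma called 4825 genes in CD4+ TEM cells (26.5%), and 3470 genes moved the same way in both subsets, which is 50.1% of the CD8+ calls and 71.9% of the CD4+ calls. Another 150 were called in opposite directions. A test of the difference between the changes called 2278 genes (12.5%), 817 with the more positive change in CD8+ cells and 1461 with the more negative one. This count fell to 1082 without CD8+ TEM replicate 1 and 982 without replicate 2. Some of these genes changed mainly in CD8+ cells. *Esm1*, a secreted proteoglycan known from endothelium, read 2.12 and 2.40 in naïve and 8.22 and 8.32 in TEM cells (6.01, SE 0.15, adjusted p = 1.93e-07) and changed by 0.99 in CD4+ cells, a difference of 5.02 (SE 0.21, adjusted p = 0.000179). *Sval1*, of a family of seminal fluid proteins, read 2.25 and 2.64 in naïve and 7.89 and 8.43 in TEM cells, a difference of 5.46 (SE 0.50, adjusted p = 0.000909), and *Lcn4*, a lipocalin, fell from 9.47 and 9.91 to 4.52 and 4.07, a difference of -5.82 (SE 0.47, adjusted p = 0.000644). *Lcn4* was already at 3.065 on average in naïve CD4+ cells. *Ccr9* and *Ifi213* fell in both subsets and by more in CD8+ cells, with differences of -4.89 (SE 0.32, adjusted p = 0.000386) and -4.27 (SE 0.45, adjusted p = 0.00155). For *Ccr9* the naïve means were 10.46 in CD8+ and 5.58 in CD4+ cells, while the TEM means were alike and low, at 2.73 and 2.74. For *Ifi213* the naïve means were 11.16 and 9.22 and the TEM means 3.09 and 5.42. *Eomes* moved in opposite directions, with a change of -2.53 in CD8+ and of 2.85 in CD4+ cells and a difference of -5.38 (SE 0.46, adjusted p = 0.000754).

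Other genes, too, differed in level between the naïve cells of both subsets. *Nkg7*, *Cxcr6*, a tissue homing receptor, and *Itgae*, which encodes the CD103 integrin chain, read 12.30 and 12.69, 9.36 and 10.55 and 12.69 and 12.61 on the naïve CD8+ arrays, against means of 5.47, 3.87 and 5.15 in naïve CD4+ cells. None of the 3 was called in the CD8+ comparison, though *Itgae* was called lower with only the 4 CD8+ arrays in the fit, and their differences were -6.50 (SE 0.30, adjusted p = 0.000186), -6.18 (SE 0.63, adjusted p = 0.00137) and -6.64 (SE 1.2, adjusted p = 0.0116). *Il9* stayed at 3.32 and 3.20 in naïve and 3.99 and 3.16 in TEM cells of the CD8+ subset, while it changed by 7.35 in CD4+ cells, a difference of -7.04 (SE 0.35, adjusted p = 0.000186). Likewise *St8sia6*, a sialyltransferase, read 5.10 and 5.46 in naïve and 4.85 and 5.78 in TEM cells of the CD8+ subset and 11.63 on average in naïve CD4+ cells, a difference of 6.02 (SE 0.42, adjusted p = 0.000506). *Cd44* and *Il2ra* rose further in CD8+ than in CD4+ cells, by 2.51 (SE 0.26, adjusted p = 0.00142) and by 2.77 (SE 0.35, adjusted p = 0.00313), as did *Prdx4*, by 2.41 (SE 0.22, adjusted p = 0.000958), and *Fdps*, by 2.07 (SE 0.27, adjusted p = 0.00346).

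**Figure D5:**
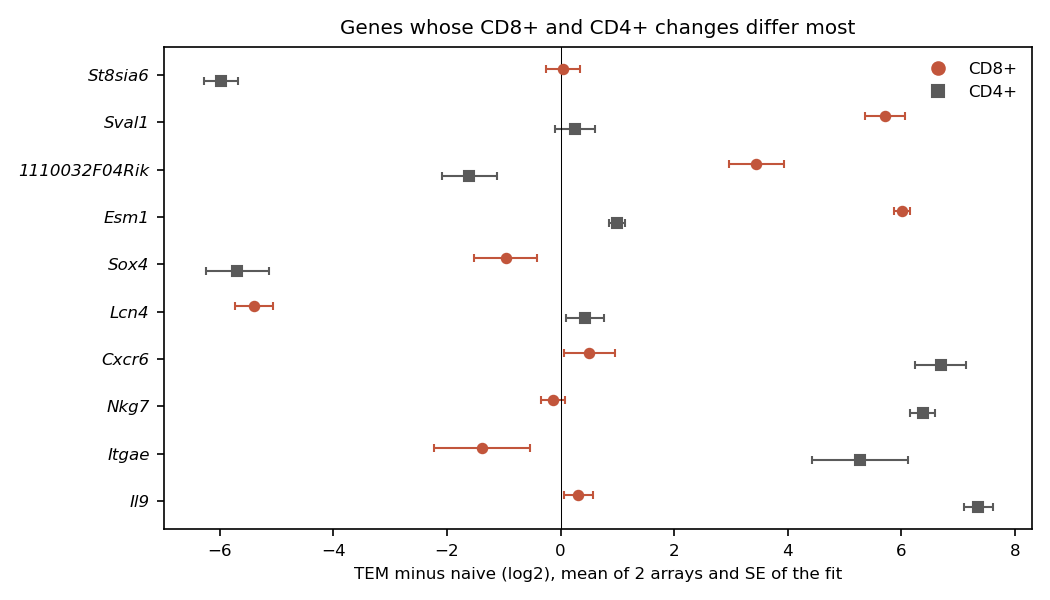
Log2 change from naïve to TEM cells in CD8+ (red circles) and CD4+ cells (grey squares) for the 5 largest positive and 5 largest negative differences between the changes. Points are differences of means of 2 arrays and bars are standard errors of the fit; *Esm1* and *Sval1* lie far right in CD8+ cells only, and *Il9*, *Nkg7* and *Cxcr6* far right in CD4+ cells only.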

How the data were processed

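RNA of sorted T cells was hybridized to Affymetrix mouse genome arrays. The authors normalized the arrays by RMA in BRB-ArrayTools (version not given in the sources used here), and the deposited table holds 1 log2 value per probe set and array, already background-corrected, quantile-normalized and summarized. RMA equalizes the arrays, so a change in total RNA per cell cannot be seen, and the number of arrays limits the precision. Of 45101 probe sets, 64 controls, 932 with several gene symbols and 9160 unnamed ones were left out, and 34945 with 1 symbol gave 18193 genes. Symbols of 34741 probe sets were updated through Entrez IDs.

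A group-means model of the 5 groups was fitted in limma 3.58.1 (R 4.3.3) with empirical Bayes moderation, 5 residual and 2.956 prior degrees of freedom and Benjamini-Hochberg adjustment, and was tested on simulated data. The same fit gave the difference between the CD8+ and CD4+ changes. Named genes follow a rule: the 15 largest kept rises and falls, up to 4 leading members of each list, the 5 largest differences from CD4+ cells in each direction, the 10 largest gaps between the naïve arrays and a set of T cell genes. Another 102 named genes were chosen after their values were seen. All members and lists were chosen with earlier results of these data known. No set test was run. A few members of these lists are not reported here. Alternatives left out each CD8+ array, fitted only the 4 CD8+ arrays or added a replicate block. Others averaged probe sets, used only those without an s, x or a suffix in their name, or filtered dim or invariant genes. The rest normalized or centered again, changed the moderation, weighted arrays, or replaced the test by the 2-fold rule of the methods.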

Additional observations from a re-analysis of the deposited data

Results flagged for a closer look

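The 10 genes below were flagged because their change from naïve to TEM cells differed between CD8+ and CD4+ cells by the limma test of the difference, each value being the CD8+ change minus the CD4+ change on the log2 scale. The difference was positive for *St8sia6* (6.02), *Sval1* (5.46), *1110032F04Rik* (5.05), *Esm1* (5.02) and *Sox4* (4.72). It was negative for *Il9* (-7.04), *Itgae* (-6.64), *Nkg7* (-6.50), *Cxcr6* (-6.18) and *Lcn4* (-5.82). For *Sox4*, a transcription factor of early lymphocytes, the difference came with a CD8+ change of -0.97 and a CD4+ change of -5.69. For *1110032F04Rik*, an uncharacterized gene, the CD8+ change was 3.44 and the CD4+ change -1.61. Groups of 2 arrays are too small for a test of single arrays that stand apart.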

How the results depend on the processing

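Over the alternatives the number of genes called between CD8+ TEM and naïve cells lay between 5091 (the 2-fold rule) and 7189 (array weights), against 6926, and the number of kept calls between 3756 and 5846, against 5056. Neither moved by over 1.5 times. The number of genes whose CD8+ and CD4+ changes differ (2278) lay between 982 and 2460 when 1 CD8+ array was left out, at 1082 without TEM replicate 1 and 982 without TEM replicate 2. Leaving out a TEM or a naïve array leaves 1 sample in that group, which is then assumed to vary like the other groups. With the replicate number as a block 6814 genes were called, 4615 were kept and 2055 differed from CD4+ cells. Same-numbered arrays did not deviate together (r across genes from -0.02 to 0.03), so the numbers were not taken as pairs. Of 271 named genes, 231 kept their direction and their side of the threshold under all alternatives that could be run. Changes turned direction with the naïve array left out. Leave-one-out values ran from -6.03 to 2.97 for *Hspa1b*, -0.56 to 7.98 for *Xist*, -4.76 to 3.55 for *Eif2s3y*, -5.49 to 1.41 for *Nr4a2*, -1.81 to 4.53 for *Jun* and -4.32 to 1.71 for *Kdm5d*. The upper value came without naïve replicate 1 for *Hspa1b*, *Xist*, *Nr4a2* and *Jun*, and without naïve replicate 2 for *Eif2s3y* and *Kdm5d*. *Ighm* was 0.026 with probe sets that carry no s, x or a suffix, and the cause was not tested. Genes dim in both groups carry little signal over background, so their lack of a call does not show that they were unchanged.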
